A study of Mus musculus with 12 samples.

Results

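BMAL1 signal above input that was still present after 4-OHT treatment was measured by chromatin immunoprecipitation and sequencing (ChIP-seq) in mouse embryonic fibroblasts, over all 4740 of the 4740 regions for which read counts were used here. No region was selected by its level with 4-OHT. The regions carry the names of peaks called on solvent-treated cells, so they are the BMAL1 sites of those cells, and sites bound with 4-OHT alone could not be seen. The fibroblasts were of strain 129/sv, and every group was per1 -/-, per2 -/-, nr1d1 -/-, nr1d2 -/- and carried a PER2-ER transgene, a PER2 protein joined to an estrogen receptor part that 4-hydroxytamoxifen (4-OHT) binds. One group received 1 µM 4-OHT for 4 h and its control 0.1% EtOH, the solvent of 4-OHT, for 4 h. The labels give no promoter for the transgene, do not say whether the cells are 1 clone, and include no 4-OHT treatment of cells without PER2-ER, so an effect of 4-OHT itself and one of PER2-ER cannot be told apart. Each treatment had 2 BMAL1 ChIP libraries, 2 input libraries (crosslinked chromatin sequenced without immunoprecipitation) and 2 mRNA-seq libraries. The labels do not say whether the replicates were separate cultures, and the p-values therefore cover only how far these libraries differ, which could be a technical difference.

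BMAL1 pairs with CLOCK to form the activator of the mammalian circadian clock, which binds E-box DNA (CACGTG) and drives the Per, Cry, Nr1d and Dbp genes. PER proteins enter the nucleus with CRY proteins, bind CLOCK-BMAL1 and repress it, and PER together with CRY is known to take CLOCK-BMAL1 off DNA, whereas CRY1 can also sit on the DNA-bound complex. How much BMAL1 signal was left above input at each site, and at which sites it could no longer be told from input, is the subject of the measurements below. A lower ChIP signal can come, among other sources, from fewer cells with a bound factor or from less binding in each cell. Fewer bound cells and less binding per cell cannot be told apart in bulk chromatin. A difference between libraries in how much chromatin the immunoprecipitation recovered was not tested.

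Sequences upstream of 6 genes show what the promoters under the regions looked like on both sides of that division. The first 4 lie under regions that stayed far above input with 4-OHT. The last 2 lie under regions that were clear BMAL1 sites with EtOH and hold the same E-box. They were not called above input with 4-OHT by the test used here, a call that some alternatives changed. The first 4 were also far stronger BMAL1 sites with EtOH than the last 2. The part of this starting signal in the division was not tested. Each run is the 150 bases before the RefSeq gene start (build GRCm38.p6, the mm10 assembly), 5′ to 3′ on the strand of the gene, and capitals mark CACGTG. Ciart (chr3:95882229-95882378, minus strand) holds 3 E-boxes, the last 2 of them 8 bases apart. Cry1 (chr10:85185055-85185204, minus strand) holds 1. Tulp4 (chr17:6106680-6106829, plus strand) holds 2 with a gap of 7 bases, the arrangement of a tandem E-box. Lamp1 (chr8:13159011-13159160, plus strand) holds 4, with gaps of 10, 11 and 7 bases. Hsph1 (chr5:149636316-149636465, minus strand) and Ranbp2 (chr10:58446702-58446851, plus strand) hold 1 each. All 150 bases lay inside the measured region, except for Hsph1, where 122 did.
Ciart: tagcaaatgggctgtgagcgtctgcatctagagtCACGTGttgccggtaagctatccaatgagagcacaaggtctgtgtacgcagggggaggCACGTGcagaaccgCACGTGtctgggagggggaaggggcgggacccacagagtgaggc
Cry1: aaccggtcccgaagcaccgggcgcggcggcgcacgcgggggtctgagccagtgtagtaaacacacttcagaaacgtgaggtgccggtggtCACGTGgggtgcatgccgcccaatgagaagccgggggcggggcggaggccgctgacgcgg
Tulp4: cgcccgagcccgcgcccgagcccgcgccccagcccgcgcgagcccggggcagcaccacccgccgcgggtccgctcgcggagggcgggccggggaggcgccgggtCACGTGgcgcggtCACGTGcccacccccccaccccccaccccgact
Lamp1: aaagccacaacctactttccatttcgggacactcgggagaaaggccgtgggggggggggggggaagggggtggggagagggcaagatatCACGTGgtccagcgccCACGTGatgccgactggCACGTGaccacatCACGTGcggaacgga
Hsph1: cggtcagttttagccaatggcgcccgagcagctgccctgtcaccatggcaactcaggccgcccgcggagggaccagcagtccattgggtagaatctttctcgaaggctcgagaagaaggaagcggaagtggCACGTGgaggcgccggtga
Ranbp2: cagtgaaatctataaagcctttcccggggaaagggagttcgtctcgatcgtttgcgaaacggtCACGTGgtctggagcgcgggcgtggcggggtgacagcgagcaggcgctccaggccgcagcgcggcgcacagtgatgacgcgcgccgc

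All levels are given as reads in a region per 10000000 library reads (RP10M), not divided by region length. The BMAL1 libraries of 4-OHT-treated cells held 13740997 and 20712373 reads and their inputs 12481308 and 33454366, so that 1 read was worth 0.728 and 0.483 RP10M in the ChIP and 0.801 and 0.299 RP10M in the input. The shallow input (replicate 1) had no read in 496 regions, against 38 for the deep input and 39 and 10 for the BMAL1 libraries. The cells expressed 8 of 9 fibroblast marker genes, with Thy1 at 0, and summed to 27834 to 30407 CPM (gene counts scaled to library size) over the 9. Of the defining markers of other cell types, Cdh5 (endothelium) and Myod1 (muscle) were at 0. All endothelial markers together summed to 0.067 to 0.158 CPM and all muscle markers to 0.660 to 1.06 CPM. Summed epithelial markers reached 12.5 to 16.7 CPM, mostly Cdh1, leukocyte markers 2.97 to 3.32 CPM and pluripotency markers 7.38 to 11 CPM, mostly Sox2. The part of these markers in any result was not tested.

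BMAL1 signal stayed above input at most of its sites. With 4-OHT, 3822 of 4740 regions (80.6%) were called above input and 0 below, by edgeR's quasi-likelihood test at a Benjamini-Hochberg adjusted p under 0.05 (at an unadjusted p under 0.05, 3904 were above and 0 below). With EtOH, 4718 regions (99.5%) were above input. The median region had 8.01 and 8.21 RP10M in the 2 BMAL1 libraries and 2.40 and 2.39 RP10M in the 2 inputs. The median ratio of BMAL1 to input was 3.69 with 4-OHT (quartiles 2.63 and 5.31) and 12.1 with EtOH. Both BMAL1 library medians lay above both input medians, for which the exact two-sided permutation test gave p = 0.333, the smallest that 2 libraries against 2 allow. Scaling the libraries to the regions themselves (TMM factors), in place of library totals, sets the typical region to input level by construction. It moved the median log2 ratio from 1.88 to 0.026 and the calls to 232 above and 29 below. Levels given as above input are therefore relative to library totals.

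The regions fell into 3 classes. The test against a fold of 2 (edgeR's glmTreat) called 2727 regions (57.5%) more than 2-fold above input, and 1095 were above input without being shown to pass 2-fold. The other 918 regions were undecided: not called above input, but none of them was shown to lie below 2-fold either. A one-sided test for a ratio below 2-fold called 0 of 4740 (0%; lowest adjusted p = 1, edgeR quasi-likelihood), and 18 had an unadjusted p under 0.05. So no region was shown to lie under 2-fold of input, and being undecided is not the same as being at input level. In the undecided regions the median was 4 and 7 reads in the 2 BMAL1 libraries, against 16 and 26 in those past 2-fold, and the median length was 145 bp against 286 bp.

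Counting libraries instead of testing separated more regions from input. Both BMAL1 libraries lay above both inputs in 4289 regions (90.5%), the libraries overlapped in 443, and both BMAL1 libraries lay below both inputs in 8. Of the 918 undecided regions, 542 had both BMAL1 libraries above both inputs, 368 overlapped and the 8 just named were all among them. Leaving out the deep input (replicate 2) lowered the regions called above input to 2764 and those past 2-fold to 1773. Leaving out BMAL1 replicate 2, the deeper ChIP library, left 2907 and 1992.

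**Figure D1:**
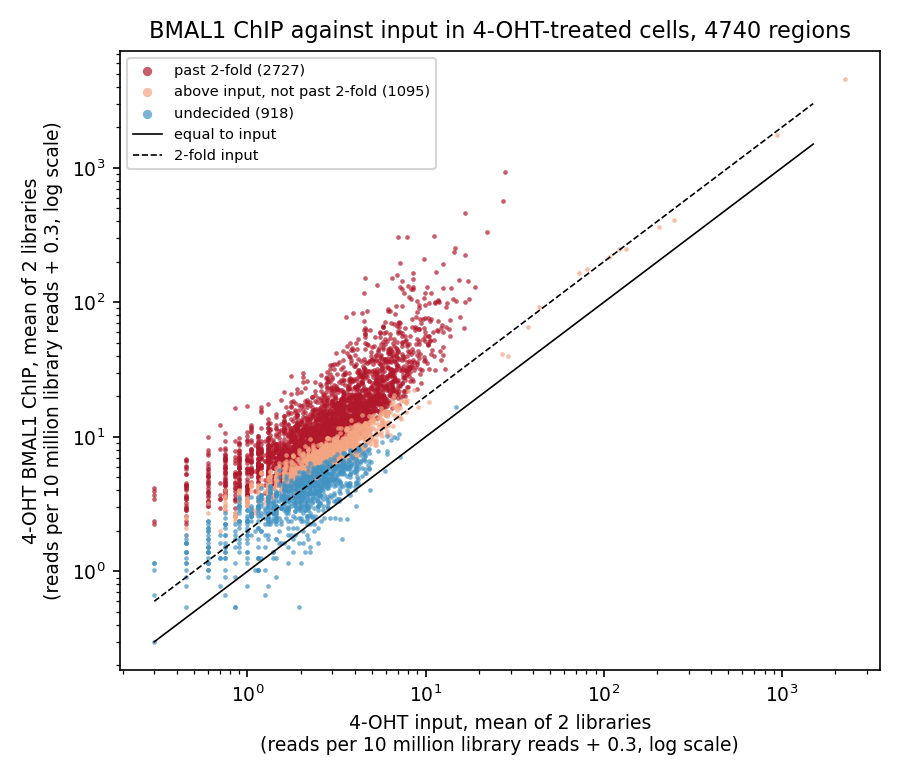
Mean BMAL1 ChIP signal against mean input signal of the 2 libraries each in 4-OHT-treated cells, both in RP10M plus 0.3 on log axes, 1 point a region. The 2727 regions past 2-fold (red) and the 1095 others above input (orange) lie over the line of equal signal, the 918 undecided regions (blue) lie around and below the 2-fold line, and 11 regions with high input form a thin tail at the right.

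The call followed how strong and how long a site was. The regions were cut into 4 bins of 1185 by EtOH BMAL1 signal. In the bin of lowest signal 49.7% were called above input with 4-OHT, and in the next bins 78.7%, 94.2% and 99.9%. By region length the shares were 52.1%, 78.1%, 92.7% and 99.6%. The fitted ratio moved less, with a median of 2.85-fold in the weakest bin, 3.21-fold and 3.57-fold in the next and 5.18-fold in the strongest. Reads per region differ along the same axis, with medians of 5 and 8 in the weakest bin and 29 and 48 in the strongest, and their part in the calls was not tested. In the strongest bin 1 of 1185 regions was undecided, the one at the start of Hjurp described below.

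The shares differed little by position relative to genes. Of 2944 regions with an edge within 1 kb of a gene start, 81.2% were above input, and their median fitted ratio was 3.76-fold. The share was 80.6% of 155 exonic, 78.8% of 791 intronic, 82.4% of 272 intergenic regions within 10 kb of a start and 79.6% of 578 farther away, with median ratios of 3.46, 3.39, 3.85 and 3.56-fold. Regions with 2 or more gene starts within 1 kb (450) were called in 83.6%. Within the strongest bin of EtOH signal the median ratio lay between 5.08-fold at gene starts and 5.56-fold in introns. These shares are descriptions with no test between positions.

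**Figure D2:**
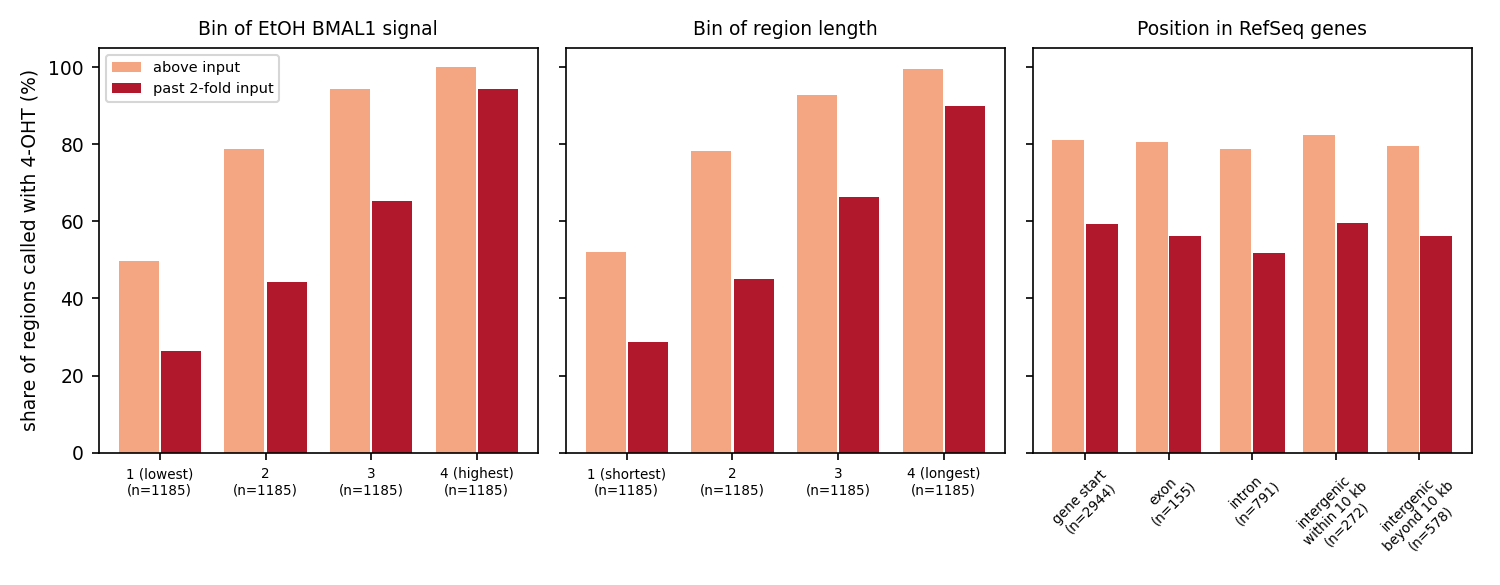
Share of regions (percent, bars from 0) called above input (orange) and past 2-fold (red) with 4-OHT, by bin of EtOH BMAL1 signal, bin of region length and position in RefSeq genes, with the number of regions under each pair of bars. Shares above input go from 49.7% to 99.9% over the bins of EtOH signal and from 52.1% to 99.6% over those of length, and lie between 78.8% and 82.4% over the 5 positions.

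What remained was a fraction of the EtOH signal. The excess over input with 4-OHT, taken as BMAL1 minus input in RP10M, had a median of 23.8% of the excess with EtOH (quartiles 18.1% and 31.8%), or 21.2% and 26.1% from the libraries numbered 1 and 2 alone. The ratio to input was lower with 4-OHT than with EtOH in 2395 regions (50.5%) and higher in 0 (edgeR interaction contrast, adjusted p under 0.05; 0 higher also at an unadjusted p under 0.05). This count rests on the inputs: it was 4442 with all 4 inputs as one group, 653 without 4-OHT input replicate 2 and 1591 without EtOH input replicate 2, and DESeq2 gave 940. Because the regions were called on EtOH-treated cells, a fall is partly set by that choice. The share left was 26.3%, 26.6%, 24.5% and 21.1% from the weakest to the strongest bin of EtOH signal. Reads in the regions made up 2.63% and 2.46% of the EtOH BMAL1 libraries and 0.689% and 0.749% of the 4-OHT ones. Under TMM scaling the ratio was lower in 5 regions and higher in 13. The part of immunoprecipitation yield in the fall was not tested.

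The order of the sites was mostly kept while the level was not. Across the 4740 regions, Spearman's rho between mean BMAL1 signal with 4-OHT and with EtOH was 0.904, each a mean of 2 libraries. Between single BMAL1 libraries it was 0.812 with 4-OHT and 0.936 with EtOH. Values of means and of single libraries are unlike measures and cannot be ranked against each other. These are descriptions over regions of differing length and share the regions' definition. The ratios to input with 4-OHT and with EtOH correlated less, with rho = 0.391. The 100 regions with the most excess, leaving out those of Rn45s, held 24.1% of all excess with 4-OHT and 29.1% with EtOH.

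High residual ratios were found at the clock's own negative feedback genes. All 10 of the repressor list (Per1, Per2, Per3, Cry1, Cry2, Nr1d1, Nr1d2, Bhlhe40, Bhlhe41 and Ciart) were past 2-fold, with a median fitted ratio of 18.3-fold (7.75 to 35.8) against 3.68-fold over all regions. The 10 regions were strong sites with EtOH, at a median of 1664 RP10M against 23.7 over all regions. Past 2-fold were 57.5% of all regions and 94.3% of the strongest bin of EtOH signal, where the median ratio with 4-OHT was 5.18-fold. That bin starts at 45.6 RP10M and has a median of 80.5, far below these 10. All 10 also had a lower ratio than with EtOH, beside 50.5% of all regions. A lower ratio was also found in 518 of 529 regions with at least 86.9 RP10M with EtOH and below 30 RP10M of 4-OHT input. At the median 15.9% of their EtOH excess was left (13.3% to 17.9%). That is less than the 23.8% over all regions, the 21.1% in the strongest bin and the 19.9% in the 529 regions. The 529 had a median of 145 RP10M with EtOH, so none of these sets matches the 10 in EtOH signal. The part of EtOH signal in the ratio and in the share left was not tested. Under TMM scaling all 10 were still called above input. These genes are established CLOCK-BMAL1 targets, and the list was drawn up knowing results from these samples, so its direction is not independent evidence.

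The highest ratio among the repressors was at Per2, which encodes the PER2 repressor itself (chr1:91458543-91459894, at the gene start). Its BMAL1 signal was 288.9 and 317.2 RP10M with 4-OHT, against inputs of 5.61 and 9.57. The 2 groups are far apart there, and the fitted ratio was 35.8-fold (log2 5.16 ± 0.20 SE, adjusted p = 3.02e-35, edgeR). With EtOH the region had stood at 1763 ± 19.4 RP10M (SD, n = 2), so 16.9% of the excess was left. Per1 had 290.4 and 331.7 RP10M at a region 3254 bp from its start (26.6-fold). Per3, a PER family member with weaker repressor function, had 85.9 and 104.3 RP10M with inputs of 3.20 and 16.1, the lowest ratio of the list at 7.75-fold.

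Cry1 and Cry2 encode the cryptochromes that act with PER proteins. Cry1 (chr10:85184459-85185659, over the sequence printed above) had 238.0 and 270.4 RP10M against inputs of 11.2 and 17.6, a 16.2-fold ratio with 15.5% of the EtOH excess left. Cry2 had 133.9 and 162.2 RP10M against 3.20 and 13.1 (14.5-fold). In both genes the lower ChIP library was more than 10 times the higher input.

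Nr1d1 and Nr1d2 encode the REV-ERB nuclear receptors, which repress Bmal1, and both are deleted as genes in these cells by the labels. At the Nr1d1 start (chr11:98773565-98776198) the BMAL1 libraries had 539.3 and 591.0 RP10M and the inputs 25.6 and 28.1. A second Nr1d1 region, 7626 bp from the start, had 190.7 and 198.4 RP10M against 4.81 and 8.97. Their ratios were 20.7-fold and 24.8-fold. Nr1d2 had 423.6 and 498.3 RP10M against 11.2 and 21.5 (25-fold), from 2784 ± 119 RP10M with EtOH.

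Bhlhe40 and Bhlhe41 encode DEC1 and DEC2, which compete for E-boxes, and Ciart encodes CHRONO, another CLOCK-BMAL1 repressor. Bhlhe41 had one of the highest ratios, 34.4-fold, at a region 9208 bp from its start with 144.1 and 158.4 RP10M over inputs of 4.01 and 4.48. Bhlhe40 stood at 15.4-fold. Ciart, with the 3 E-boxes shown above, had 331.9 and 337.5 RP10M over 18.4 and 25.4 (14.4-fold). It had 13.6% of its EtOH excess left, near the low end of the list.

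Output factors of the clock kept high ratios too. Tef, Dbp and Hlf encode the PAR bZIP factors, which carry clock timing to D-box genes. All 3 regions were past 2-fold, beside 57.5% of all regions, and kept their direction under TMM scaling. They were strong sites, at 329 to 4628 RP10M with EtOH. Of 529 regions with at least 86.9 RP10M with EtOH and below 30 RP10M of 4-OHT input, 526 were past 2-fold. No region lay within 10 kb of the start of Nfil3, their antagonist. Tef held the most excess of any region outside Rn45s (chr15:81810207-81812077, exonic, 7534 bp from the nearest start), with 892.9 and 973.8 RP10M over inputs of 18.4 and 37.1. Its ratio was 29.9-fold, and 19.7% of the EtOH excess was left from a BMAL1 signal of 4628 ± 67.9 RP10M. Hlf had 75.7 and 79.2 RP10M at its start (20.7-fold, 22.7% left) and more at a distal region 26886 bp away, with 281.6 and 331.2 RP10M over 2.40 and 11.1 (35.6-fold). Dbp stood at 14.5-fold.

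**Figure D3:**
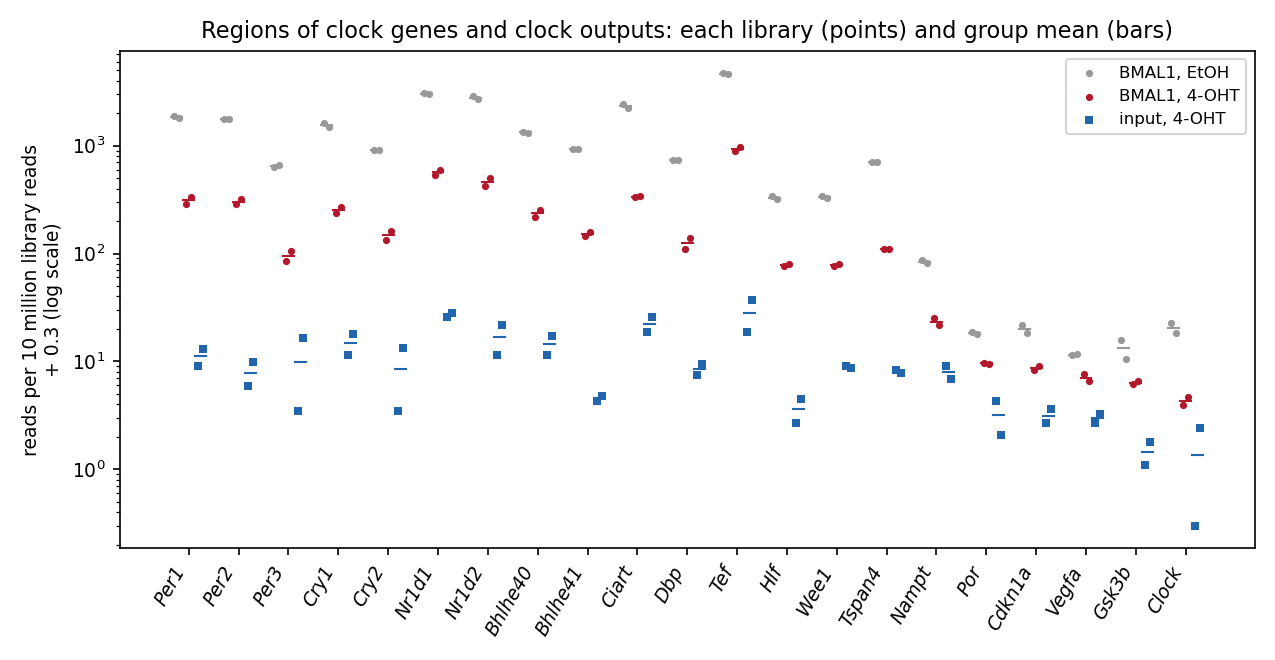
BMAL1 ChIP with EtOH (grey) and 4-OHT (red) and input with 4-OHT (blue) at regions of 21 clock and clock output genes, in RP10M plus 0.3 on a log axis, with each library as a point and the group mean as a bar. In all 10 repressors and in Dbp, Tef and Hlf the 4-OHT BMAL1 libraries sit between the EtOH libraries and the input. At Nampt, Por, Cdkn1a, Vegfa and Clock the fitted ratios to input were lower, from 2.34 to 3.76-fold. Of these, Nampt and Por were still past 2-fold.

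Other known outputs of CLOCK-BMAL1 split into a high and a low set. Wee1, the kinase that holds CDK1 inactive, had 75.7 and 79.2 RP10M over 8.81 and 8.37 (9.08-fold), and the tetraspanin gene Tspan4 stood at 14.3-fold. Nampt, the rate-limiting enzyme of NAD salvage, had 24.7 and 21.2 RP10M over 8.81 and 6.58, a ratio of only 3.12-fold (adjusted p = 9.53e-06, edgeR). Its groups do not overlap, but under TMM scaling its log2 ratio was −0.26. Por had 9.46 and 9.17 RP10M over 4.01 and 1.79 (3.76-fold), and its call was lost without input replicate 2 (adjusted p = 0.102).

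Cdkn1a, encoding the CDK inhibitor p21, and Vegfa, encoding an angiogenic growth factor, were above input without passing 2-fold (2.73-fold and 2.34-fold). Both turned negative under TMM scaling, at −0.44 and −0.66. The Vegfa call was lost when any one of the 4 libraries of 4-OHT-treated cells was left out (adjusted p from 0.0628 to 0.110). In all, 6 of 6 measured regions of this list were above input and 4 past 2-fold, beside 80.6% and 57.5% of all regions. The median EtOH signal of the 6 was 51.7 RP10M. That lies near the lower edge (45.6 RP10M) of the strongest bin, where 99.9% were above input and 94.3% past 2-fold. In the third bin the shares were 94.2% and 65.3%. The list reached down to 11.2 RP10M, in the weakest bin, where they were 49.7% and 26.3%. No single bin therefore matches the list. DESeq2 called 4 of the 6, without Cdkn1a (adjusted p = 0.0733) and Vegfa (0.170). No region lay within 10 kb of the starts of the other 4 genes.

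The region at the start of Clock, which encodes the partner of BMAL1, was undecided, with 3.64 and 4.34 RP10M over 0 and 2.09 (adjusted p = 0.0544, edgeR), and was called with all 4 inputs as one group (0.0205) and without input replicate 2 (0.0135). With EtOH that region had 20.2 ± 2.88 RP10M, so its low level was reached from a weak site. Among 14 kinase and ligase genes of PER and CRY, only Gsk3b had a region, at 4.51-fold. Under TMM scaling Clock turned to −0.48, and Gsk3b stayed above 0 without being called.

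Lysosome genes of the CLEAR network carry CACGTG-type sites that the factor TFEB reads, and 19 of 28 had a BMAL1 region. With 4-OHT, 18 of 19 were above input and 16 past 2-fold, beside 80.6% and 57.5% of all regions. The strongest region of each gene was taken, and the median EtOH signal of the 19 was 50.7 RP10M. That lies near the lower edge (45.6 RP10M) of the strongest bin, where 99.9% were above input and 94.3% past 2-fold. In the third bin the shares were 94.2% and 65.3%. The list reached down to 10.1 RP10M, in the weakest bin, where they were 49.7% and 26.3%. No single bin therefore matches the list. The median ratio of the 19 was 6.80-fold, and 20.9% of the EtOH excess was left. Lamp1, which encodes a lysosomal membrane protein and has the 4 E-boxes shown above, had 113.5 and 119.3 RP10M over 12 and 8.97 (11.8-fold). Mcoln1, encoding a lysosomal calcium channel, stood at 7.19-fold, and Sgsh, encoding a heparan sulfatase, at 8.5-fold from few reads. Neu1, encoding a sialidase, was undecided at 4.37 and 6.28 RP10M over 2.40 and 2.39 (adjusted p = 0.0522), and was called with all 4 inputs as one group (0.0221) and without BMAL1 replicate 1 (0.0445). Under TMM scaling 15 of the 19 kept a positive log2 ratio, and 6 were called.

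Genes known as MYC targets, which share the E-box, had 11 of 12 regions above input and 9 past 2-fold (median 5.22-fold), beside 80.6% and 57.5% of all regions. The median EtOH signal of the 12 was 68.3 RP10M. That lies inside the strongest bin but below its median of 80.5 RP10M. In that bin 99.9% were above input and 94.3% past 2-fold, and in the third bin 94.2% and 65.3%. The list reached down to 10.3 RP10M, in the weakest bin, where the shares were 49.7% and 26.3%. No single bin therefore matches the list. Ncl (nucleolin) had 81.5 and 89.8 RP10M over 6.41 and 5.68, a 14.5-fold ratio. Npm1, encoding another nucleolar protein, stood at 9.84-fold and Cdk4, encoding a cell cycle kinase, at 8.80-fold. Polr1b, encoding an RNA polymerase I subunit, was undecided at 2.18 and 5.79 RP10M over 0.801 and 2.09, and was called with all 4 inputs as one group (adjusted p = 0.00889) and without BMAL1 replicate 1 (0.0234). Nop56 was called at 3.07-fold, and that call was lost without input replicate 2 (adjusted p = 0.198). Under TMM scaling 8 of the 12 stayed positive, and Nop56 and Polr1b turned to −0.25 and −0.58.

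Of 7 regions at sterol synthesis genes, 4 were above input and 3 past 2-fold, beside 80.6% and 57.5% of all regions. Their median was 2.87-fold beside 3.68-fold, and their median EtOH signal 18.9 RP10M beside 23.7 over all regions. The 4 became 2 without BMAL1 replicate 2 and 6 with all 4 inputs as one group. Lss, the enzyme that makes lanosterol, had 32.0 and 33.3 RP10M over 6.41 and 5.08 (5.94-fold), and Insig1, a sterol sensor of the pathway, stood at 5-fold. Among the undecided were Idi1, an isomerase of the pathway, at 6.55 and 2.41 RP10M over 3.20 and 2.09, and Srebf2, encoding the factor that drives these genes, at 4.37 and 8.69 over 4.01 and 3.59. At both, the ChIP and input libraries lie close together, and Srebf2 was called with all 4 inputs as one group (adjusted p = 0.00466) and without BMAL1 replicate 1 (0.0315). Under TMM scaling Idi1 turned to −1.13 and Srebf2 to −1.

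Of the AP-1 factors, immediate early transcription factors, 6 of 7 regions were past 2-fold, beside 57.5% of all regions. Among them were Fosl1 (6.71-fold, region 9346 bp from the start) and Junb (4.16-fold). The median EtOH signal of the 7 was 49.1 RP10M, near the lower edge (45.6 RP10M) of the strongest bin, where 94.3% were past 2-fold. In the third bin the share was 65.3%. The list reached down to 9.07 RP10M, in the weakest bin, where it was 26.3%. No single bin therefore matches the list. Jun was undecided, with 2.18 and 2.90 RP10M over 2.40 and 1.20, so its libraries overlapped. Of 8 regions at heat shock genes, 6 were above input and 5 past 2-fold, near the 80.6% and 57.5% of all regions. The region shared by the chaperonin genes Hspd1 and Hspe1 had 37.1 and 57.9 RP10M over 8.81 and 11.4 (4.59-fold). Hspa8, encoding a constitutive HSP70, was undecided at 8.73 and 2.90 over 4.01 and 1.79, and was called with all 4 inputs as one group (adjusted p = 0.0278), without BMAL1 replicate 2 (0.0121) and without input replicate 1 (0.0411). Under TMM scaling Jun, Hspa8 and Hsph1 were negative (−1.12, −0.78 and −1.10), and Fosl1 was the one region of both lists still called.

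Ribosomal protein genes, with 27 regions for 28 of 78 genes, had 23 above input and 18 past 2-fold, near the 80.6% and 57.5% of all regions. Their median was 3.45-fold, with 28.2% of the EtOH excess left. Rps20 reached 12.6-fold, with 24 and 30.9 RP10M over 0.801 and 2.69. Rpsa, at 2.91 and 6.76 over 0 and 0.598, was called but lost its call without BMAL1 replicate 2 (adjusted p = 0.0571). Undecided were Rpl24, Rpl35a, Rpl7 and Rps12, the last with 5.09 and 7.24 RP10M over 3.20 and 4.48 from 30.3 ± 2.03 with EtOH. Under TMM scaling 13 of 27 were positive and 14 negative, with Rps12 at −1.27.

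Collagen genes had 1 region, at Col5a1, which had 0 and 4.35 RP10M over 4.81 and 1.20, and this was undecided (1.15-fold, adjusted p = 0.792). Its direction turned without either deeper library of 4-OHT-treated cells, with DESeq2 and under TMM scaling (log2 −1.66). Estrogen receptor targets were listed because 4-OHT binds that receptor. Their 3 regions were all above input, beside 80.6% of all regions. They lay at Rara (35.7 and 33.3 RP10M over 1.60 and 3.89, 10.4-fold), Ccnd1 (7.06-fold) and Xbp1 (2.64-fold). Xbp1 turned to −0.48 under TMM scaling and lost its call without BMAL1 replicate 2 (adjusted p = 0.143) or input replicate 1 (adjusted p = 0.0838). The ratio was lower with 4-OHT than with EtOH in 2 of the 3 and higher in 0. Of all 4740 regions, 50.5% had a lower ratio and 0 a higher one.

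High ratios were also found away from annotated clock genes. Among regions with at least 20 reads in both 4-OHT BMAL1 libraries, the 10 highest ratios included Rragb on the X chromosome, encoding a RAG GTPase of amino acid sensing, at 16.7 and 15.5 RP10M over 0.801 and 0.299 (32.0-fold, from 1 read in each input). Rragb had 28.6% of its EtOH excess left, and its ratio did not pass the test of change (log2 −0.04, adjusted p = 0.945). A region 63557 bp from the start of Prps1 had 110.6 and 122.1 RP10M over 4.81 and 3.59 (29.3-fold). One 33562 bp from Foxk1 had 133.2 and 134.7 over 5.61 and 4.48 (27.6-fold). Tulp4, with its tandem E-box, stood at 136.8 and 166.6 RP10M over 4.01 and 8.37 (21.3-fold).

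At the other end stood regions that had clear BMAL1 signal with EtOH and were not called above input with 4-OHT. The 10 with the highest EtOH signal among the 918 undecided ones included those nearest to Hjurp, Tspo, Pdcd11, Lekr1, Hs6st1, Thada, Srfbp1, Myof and Hsph1. Their EtOH ratios to input ran from 4.76-fold at Hjurp to 23.0-fold at Lekr1. All 10 had a lower ratio with 4-OHT (interaction contrast, adjusted p from 5.48e-06 to 0.00102, edgeR), beside 50.5% of all regions. Choosing regions by high EtOH signal and no call with 4-OHT largely sets this outcome. These p-values are therefore not independent evidence of a fall. The excess left was 2.14% to 10.3%, though being undecided with 4-OHT selects for such low values. Under TMM scaling all 10 log2 ratios were negative, from −1.02 at Tspo to −1.57 at Hjurp.

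Hjurp encodes the chaperone that loads CENP-A at centromeres. Its region (chr1:88277483-88277684) had 18.2 and 14.5 RP10M in the BMAL1 libraries and 19.2 and 9.86 in the inputs, so the groups overlapped, from 47.5 ± 9.36 RP10M with EtOH. Lekr1 was at 4.37 and 3.86 over 4.81 and 1.79, also overlapping, after 39.5 ± 0.312 with EtOH. Hs6st1, a heparan sulfate sulfotransferase gene, had 8.73 and 10.6 over 5.61 and 7.17, with both ChIP libraries above both inputs by a small margin (1.46-fold, adjusted p = 0.183). These calls moved both ways with the libraries used. Without input replicate 2 the log2 ratio turned to −0.26 at Hjurp and −0.24 at Lekr1, and without BMAL1 replicate 2 it turned to −0.42 at Myof. With all 4 inputs as one group, Hs6st1, Tspo, Pdcd11, Myof, Srfbp1 and Hsph1 were called above input (adjusted p from 0.0044 to 0.0417, edgeR). Without BMAL1 replicate 1, Tspo, Pdcd11 and Myof were called (adjusted p from 0.0172 to 0.0464), as was Tspo without input replicate 2 (0.0485).

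The 2 undecided promoters printed above hold an E-box. Hsph1, encoding the HSP110 chaperone, had 8.73 and 11.6 RP10M over inputs of 8.81 and 4.78 (1.73-fold, adjusted p = 0.0677), after 35.8 ± 5.55 with EtOH. Ranbp2, encoding a nucleoporin, had 5.09 and 14.0 RP10M over 9.61 and 3.59 (1.90-fold, adjusted p = 0.0536), after 32.3 ± 15.1. In both the BMAL1 and input libraries overlapped, and neither call was stable. Hsph1 was called above input with all 4 inputs as one group (adjusted p = 0.0044) and without input replicate 1 (0.0294). Ranbp2 was called in 6 alternatives: all 4 inputs as one group (0.00216), the 4 libraries of 4-OHT-treated cells alone (0.0456), and without BMAL1 replicate 1 (0.00578), input replicate 1 (0.0113), EtOH input replicate 1 (0.0339) or EtOH input replicate 2 (0.0344). Without BMAL1 replicate 2 its log2 ratio was −0.07. With EtOH, the regions of the other printed promoters stood at 2322 (Ciart), 1565 (Cry1), 905 (Tulp4) and 627 RP10M (Lamp1), far above Hsph1 and Ranbp2. The EtOH excess left there was 13.6%, 15.5%, 16.2% and 17.1%, beside 10.3% at Hsph1 and 9.97% at Ranbp2. Ranbp2 and Tulp4 were chosen as examples after their values were seen.

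A separate group of regions had high input. In 11 regions the 4-OHT input reached 30 RP10M or more, a limit set after the values were seen, and all 11 were above input while none passed 2-fold (1.63 to 2.26-fold). Their ratio had been low with EtOH as well, at 2.30 to 3.04-fold. The excess left was 38.7% to 84.9% (median 62.7%). In 529 other regions with at least as much EtOH signal as the weakest of these, the median ratio with 4-OHT was 6.63-fold and 19.9% of the excess was left. The ratio was lower than with EtOH in 4 of the 11 and in 518 of the 529. Under TMM scaling all 11 log2 ratios turned negative, from −0.73 to −1.20.

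Of the 11, 4 lie in Rn45s, the 45S pre-ribosomal RNA, on chromosome 17. The largest (chr17:39843018-39846104) had 4243 and 4913 RP10M in the BMAL1 libraries and 2173 and 2365 in the inputs, a 2.02-fold ratio. Ribosomal RNA genes exist in many near-identical copies, so reads of several copies may be counted at this place and its level is uncertain. The 4 regions held 6.25% of the summed excess of all regions, and the summed excess left was 22.8% with and 21.9% without them. The others were nearest to Sfi1, Axin2, Txndc11, Filip1l, Pex2, Cdk8 and Pisd-ps3, the last on unplaced sequence. Pex2 was 284318 bp from its region, which had 169.6 and 159.8 RP10M over 68.1 and 75.9 and kept 84.9%.

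**Figure D4:**
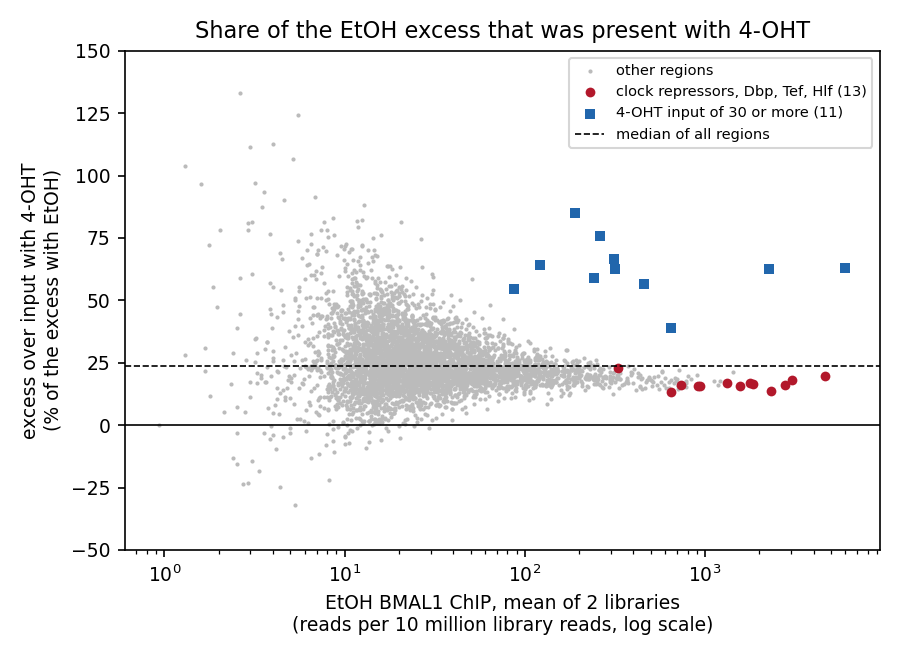
Excess over input with 4-OHT as a percentage of the excess with EtOH, against EtOH BMAL1 signal in RP10M (log axis), 1 point a region, with the median of all regions, 23.8%, as a dashed line and 7 regions outside the axis. The 13 regions of clock repressors, Dbp, Tef and Hlf (red) lie between 13.3% and 22.7%, and the 11 regions of high input (blue) between 38.7% and 84.9%.

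Only 5 regions were called above input with 4-OHT and not with EtOH, against 901 with EtOH alone, 3817 with both and 17 with neither. They lie near the starts of Esyt2, Birc6, Ap1ar, Paxip1 and Itgb1. Their counts were small: Esyt2 had 6 and 4 reads in the BMAL1 libraries and 0 and 1 in the inputs, Paxip1 had 5 and 1 over 0 and 0, and Itgb1 had 0 and 13 over 0 and 4. None had a higher ratio with 4-OHT than with EtOH by the interaction contrast (adjusted p from 0.192 to 0.862, edgeR), and DESeq2 called none of the 5 above input.

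The E-box was more frequent in promoters with a higher ratio to input with 4-OHT, and promoters with it had a smaller share of their EtOH excess left. RefSeq promoter sequences, 250 bases before to 50 after a gene start, overlapped 1690 regions, and CACGTG (its own reverse complement) was present in 38.3% of these and in 7.15% of all 32851 promoters. The share was 45.6% of 1088 promoters under regions past 2-fold, 27.3% of 348 under other regions above input and 22% of 254 under undecided regions. From the lowest to the highest bin of the 4-OHT ratio it was 22.9%, 34.6%, 42.7% and 53.0%. The GC box GGGCGG, searched on both strands, was present in 78.8%, 78.4% and 82.3% of the same 3 classes and in 35.7% of all promoters. A match is a string of letters, not a measured site.

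Promoters with CACGTG also had stronger EtOH signal, with a median of 46.7 against 21.6 RP10M. Regions over a CACGTG promoter were above input in 91.3% of 647 and had a median ratio of 4.55-fold, against 81.0% of 1043 and 3.57-fold without it. The share of EtOH excess left was lower with CACGTG, 21.7% against 25.5% at the median. Within bins of EtOH signal, cut over these 1690 regions, the shares above input were close: 63.5% with and 57.3% without in the weakest, 81.7% and 85.8% in the second, 96.8% and 97.0% in the third and 100% for both in the strongest. The median ratio was higher with CACGTG in each bin, from 3.22 against 3.02-fold to 5.85 against 5.38-fold, and the excess left was lower in each, at 27.8% against 28.4%, 24.3% against 28.5%, 23% against 24.6% and 19.9% against 20.9%. The tandem arrangement was searched as CACGTG followed or preceded, after a gap of 6 or 7 bases, by another CACGTG or by CACGTT on either strand. It was found at Tulp4 and Lamp1 alone among these promoters.

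**Figure D5:**
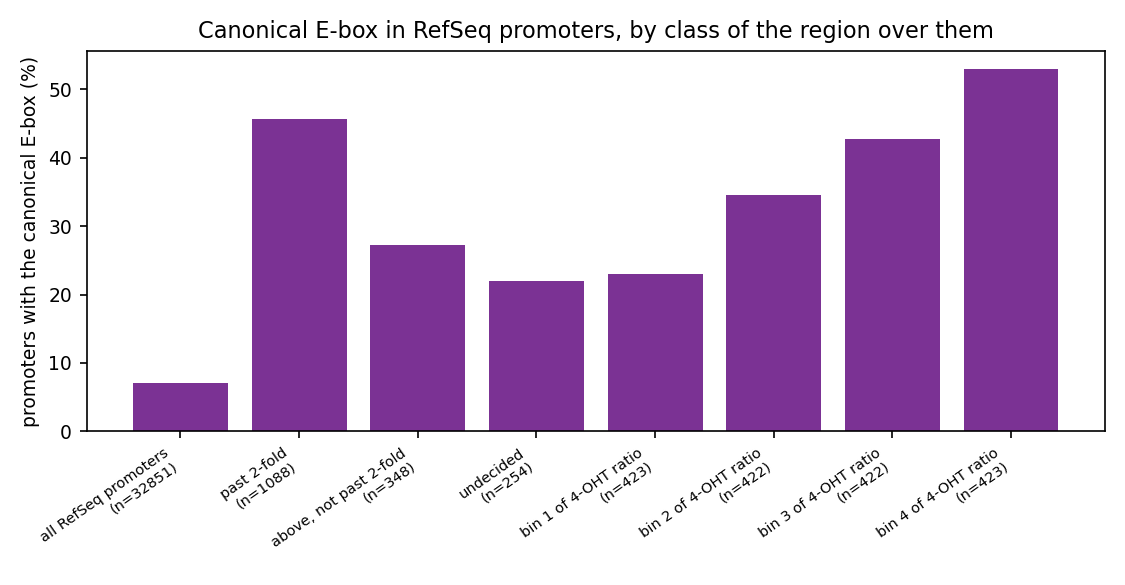
Share of RefSeq promoters holding the canonical E-box (percent, bars from 0) among all promoters, by class of the region over the promoter and by bin of the 4-OHT ratio to input, with the number of promoters under each bar. The share is 7.15% of all promoters, is 45.6% in the class past 2-fold against 22% in the undecided class, and goes from 22.9% to 53.0% over the bins.

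Messenger RNA of the same treatment gave a separate readout. With 4-OHT, mRNA of 106 of 13216 tested genes (0.802%) rose and that of 216 (1.63%) fell by edgeR's quasi-likelihood test at an adjusted p under 0.05. Of 2837 tested genes with a region within 1 kb of their start, 30 rose and 51 fell. By class of the region, 21 rose and 35 fell of 1781 genes with a region past 2-fold, 5 and 11 of 607 with another region above input, and 4 and 5 of 449 with an undecided region. Among 10360 genes without a region, 76 rose and 164 fell. Shares by class were thus 1.18%, 0.824%, 0.891% and 0.734% rising and 1.97%, 1.81%, 1.11% and 1.58% falling, all near the background. By bin of 4-OHT excess at the region, from lowest to highest, 0.694%, 0.594%, 0.830% and 1.85% rose. In the same bins 1.22%, 2.08%, 1.66% and 2.08% fell. The highest bin held 16 rising genes of 865, and no test was made between bins. Leaving out 4-OHT mRNA replicate 1 raised the genes with a region that rose to 59, and leaving out EtOH mRNA replicate 2 lowered them to 14 and those that fell to 28.

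Genes with like residual binding moved in both directions. Of the falling genes named here, the labels give Nr1d1 and Nr1d2 as deleted and Per3 not. Nr1d1 mRNA fell from 49.2 and 55.9 CPM with EtOH to 16.4 and 17.5 CPM (log2 −1.63 ± 0.08 SE, adjusted p = 1.20e-19), Nr1d2 from 83.4 and 92.5 to 39.5 and 35.3, and Per3 from 24 and 24.6 to 17.4 and 17.6. Cry1 rose from 49.5 and 44.9 CPM to 79.3 and 78.9 (log2 0.74 ± 0.07 SE, adjusted p = 8.64e-11), and Cry2 rose from 19.4 and 18.8 to 29.4 and 31.9. Bhlhe40, Bhlhe41, Ciart and Hlf also rose, by 0.31, 0.54, 0.41 and 0.94 on the log2 scale. Leaving out EtOH replicate 2 ended the calls of Bhlhe40 (adjusted p = 0.476) and Ciart (0.575), leaving out 4-OHT replicate 2 that of Ciart (0.482), and leaving out EtOH replicate 1 that of Bhlhe41 (0.0668). DESeq2 did not call Hlf (adjusted p = 0.075) or Ciart (0.132). The excess left was 17.9% at Nr1d1, 16% at Nr1d2 and 13.3% at Per3, beside 15.5% at Cry1 and 15.5% at Cry2.

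Dbp (6.83 and 7.60 CPM with EtOH, 7.06 and 7.22 with 4-OHT), Tef and Wee1 did not pass the test (adjusted p = 0.991, 0.0531 and 0.164). Per1 and Per2 did not pass it either, with Per2 at 566 and 549 CPM with EtOH and 552 and 610 with 4-OHT. Reads of the 4 genes that the labels give as deleted were counted over all exons, and Per2 reads may come from the transgene, so these counts do not check the genotype. Nr1d1 and Nr1d2 counts were present in all 4 libraries.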

How the data were processed

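Of the 12 libraries, the 8 ChIP and input libraries and, for the separate readout, the 4 mRNA libraries entered tests, grouped as the labels give. The members and gene lists were chosen with earlier results of these data known. The authors deposited read counts per region and library, made with bedtools 2.25.0 per the submitters' processing notes, and counts per gene from featureCounts v1.5.0-p1 per the file headers; the regions are on mm10. For the aligner, nothing is stated in the labels or headers. The deposited signal table, named as RPKM, holds 5 plus reads per 10000000 library reads, from which the library totals followed. A deposited −log10 q value, from the authors' peak caller, entered one filter, and the deposited fold enrichment (a ratio), score and log2 values, as well as the p-value columns, entered none.

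Region counts were fitted with edgeR 4.0.16 (R 4.3.3; robust quasi-likelihood, library totals, no count filter, 4 groups in one fit) and tested against input, against a fold of 2 with glmTreat, for a ratio below 2 with an offset, and for a change in ratio. P-values were adjusted by Benjamini-Hochberg over all 4740 regions. The median log2 ratio used a pseudocount of 0.1 RP10M. Gene counts were fitted with TMM factors and edgeR's expression filter. DESeq2 1.42.0 was an alternative. Both fits were tested on simulated data.

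Regions named in the text were the 10 with most excess, the 10 with the highest ratio among those with at least 20 reads in each 4-OHT BMAL1 library, the strongest region within 10 kb of each listed gene (examples of each list were picked for the text), the 10 undecided ones with the highest EtOH signal, and those called with 4-OHT alone. A few regions that these rules select are not reported here. No genome was used, so motifs were searched in the 300-base RefSeq promoters, matched by symbol and, as an added requirement, overlapping the region. Intervals between libraries cover counting error and the spread of 2 libraries only.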

Additional observations from a re-analysis of the deposited data

How the results depend on the processing

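The largest dependence was on scaling. With TMM factors over the regions, 232 regions were above input, 29 below, 46 past 2-fold and 1794 called under 2-fold. The ratio was lower with 4-OHT than with EtOH in 5 regions and higher in 13, the median log2 ratio was 0.026 and the median excess left 36.6%. Of 82 regions named or printed, 29 kept their direction and call under this scaling and 37 turned negative. Beside those given above, these were Tspo −1.02, Hs6st1 −1.35, Pdcd11 −1.19, Lekr1 −1.28, Thada −1.31, Srfbp1 −1.08, Myof −1.09, Hsph1 −1.10, Ranbp2 −0.96, Srebf2 −1, Neu1 −0.71, Rpl24 −1.45, Rpl35a −0.73, Sfi1 −1.12, Axin2 −0.82, Txndc11 −0.77, Pex2 −0.74, Cdk8 −0.88, the 4 Rn45s regions −0.90, −1.02, −1.08 and −1, Hjurp −1.57, Rps12 −1.27, Xbp1 −0.48, Nampt −0.26, Idi1 −1.13, Filip1l −0.73, Cdkn1a −0.44, Vegfa −0.66, Col5a1 −1.66, Polr1b −0.58, Nop56 −0.25, Jun −1.12, Clock −0.48, Hspa8 −0.78 and Pisd-ps3 −1.20. The cause is the construction of this scaling, which centres the regions.

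The ratio was lower with 4-OHT in 4442 regions with all 4 inputs as one group and in 940 by DESeq2 with library totals; the cause was not tested. The median log2 ratio was 1.52 with a pseudocount of 1. DESeq2 turned Col5a1 to −0.19. Leaving out each library in turn gave 2764 to 3811 regions above input, 0 to 1 below, 1773 to 2718 past 2-fold, 653 to 2319 with a lower and 0 to 2 with a higher ratio, a median log2 ratio of 1.81 to 2.04, 14 to 59 genes with a region whose mRNA rose and 28 to 63 that fell. Named log2 ratios over these left-out libraries ran from −0.26 to 0.70 at Hjurp, −0.07 to 1.5 at Ranbp2, −0.44 to 0.89 at Rpl24, −0.42 to 1.29 at Myof, −5.12 to 1.07 at Col5a1, −0.24 to 1.15 at Lekr1 and −3.82 to 5.70 at Itgb1. Of the 3822 regions above input, 2165 (45.7% of 4740) were called in every fit that kept all regions, TMM scaling left out. The other scaling, read, length, q-value and library-set alternatives kept the counts of calls within 1.5 times.

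The replicate numbers do not pair the samples: same-numbered libraries of different groups had deviations that correlated at −0.021 to 0.103. With a replicate block, 3733 regions were above input, 2674 past 2-fold, 2304 had a lower ratio and 32 genes with a region fell. Undecided regions had a median of 4 and 7 reads in the BMAL1 libraries, and the part of depth in their calls was not tested.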

Other observations

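The input level of the regions was not the same on all chromosomes. Input is the denominator of the ratio, so a lower ratio where input is higher is partly set by construction. The median region had 11.8 RP10M of 4-OHT input per kb on chromosome 10, 12.3 on chromosome 3, 12.2 on chromosome 19 and 12 on chromosomes 8 and 17. It had 6.60 on chromosome 7, 6.63 on chromosome 9, 7.37 on chromosome 14 and 6.09 on chromosome X. The median fitted ratio of BMAL1 to input was 3.49-fold, 3.39-fold, 3.28-fold, 3.40-fold and 3.39-fold on chromosomes 10, 3, 19, 8 and 17. On chromosomes 7, 9, 14 and X it was 4.34-fold, 4.17-fold, 4.28-fold and 4.43-fold. The share of regions called above input did not follow this order, with 74.9% of 207 on chromosome 7, 74.1% of 174 on chromosome 9 and 84.6% of 279 on chromosome 15. These chromosomes were picked after their values were seen, and no test was made.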
